A study of Homo sapiens with 9 samples.

Results

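Messages of immediate early and growth response genes were examined for their association with the nuclear and the cytoplasmic poly(A) binding protein. The set was chosen by gene symbol and held 10 genes, FOS, JUN, JUNB, JUND, EGR1, IER2, IER5, MYC, KLF10 and BTG2, of 51274 genes listed in either of the 2 tables of comparisons. All 10 members were listed in both tables. A mean normalised count above 50, the minimum for a call, was reached by 8 members in the table for the nuclear protein (PABPN) and by 9 in the table for the cytoplasmic protein (PABPC), with FOS below it in both and EGR1 in the former.

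Immediate early genes are transcribed soon after a growth signal without the need for new protein synthesis, and most encode transcription factors. Their messages are known for fast turnover, in many cases through AU-rich elements in the 3′ UTR that recruit proteins which shorten the poly(A) tail. PABPN coats tails newly made in the nucleus and PABPC coats them in the cytoplasm, although both shuttle between the compartments. Stability, tail length and synthesis were not measured in the data used here.

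The samples were of HEK293T, a long-established human line from embryonic kidney that carries the SV40 large T antigen. The cells were wildtype and in all groups were crosslinked in 0.1% formaldehyde for 10 min, and no growth stimulus was described. Each of 3 biological replicates gave an input library without immunoprecipitation, a library of RNA immunoprecipitated (RIP) with anti-PABPN and a library of RNA immunoprecipitated with anti-PABPC, for 9 libraries freed of ribosomal RNA and read as single ends of 75 nt. Both antibodies were used on parts of the same lysate, both RIPs were compared with the same input libraries, and no IgG library was analysed here. The tables held means over libraries, so the group mean is given for each message in place of a value per library, and the error is the deposited standard error (SE).

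Depth and identity of the cells were checked first. The estimated reads per library on the listed genes ran from 36.5 to 52.2 M. Of genes known to be expressed in this line, VIM, NEFL, NEFM, KRT8 and KRT18 had mean normalised counts from 495 to 56817 in the PABPN table. The blood genes PTPRC, CD3E and HBB and the liver gene ALB had between 0 and 8.64.

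The 3′ ends of the messages are shown because AU-rich elements are the feature for which this class is best known. The sense strand of the 3′ UTR of the GENCODE release 44 canonical transcript (hg38) was searched for the pentamer ATTTA and for the nonamer TTATTTATT, which contains a pentamer, and overlapping matches were counted. Capitals mark pentamers in the stretches of 30 bases below, read 5′ to 3′ on the strand of the gene. The FOS stretch lies at chr14:75282057-75282086 on the plus strand and the IER5 stretch at chr1:181092448-181092477 on the plus strand, and these are the members with a nonamer. Those of JUNB (chr19:12793059-12793088, plus strand), JUN (chr1:58781336-58781365, minus strand), JUND (chr19:18279998-18280027, minus strand), EGR1 (chr5:138469063-138469092, plus strand) and BTG2 (chr1:203307527-203307556, plus strand) each show a pentamer standing alone.
FOS: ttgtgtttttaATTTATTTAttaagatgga
IER5: ttcctttATTTATTTATTTATTTAattata
JUNB: aatatatttgtgtATTTAacagggagggga
JUN: ttccagaaaggatATTTAagaaaatacaat
JUND: tcgattctgccctATTTAtgtttctactcg
EGR1: actgaaaatgtaaATTTAtaaatatattca
BTG2: taaatgaagagctATTTAtatatattattt

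The members held 33 pentamers and 4 nonamers in all. A pentamer was present in 9 of 10 members, against 67.5% of 19550 coding genes, and a nonamer in 2, against 8.44%. IER5 had the most, with 10 pentamers and 3 overlapping nonamers in a 3′ UTR of 3014 bases. Of coding genes with a 3′ UTR of like length (up to 20% shorter or 25% longer), 26.3% had at least as many pentamers and 13.95% had a nonamer. FOS had 5 pentamers and 1 nonamer in 806 bases, a number of pentamers that 8.81% of like-length 3′ UTRs reached, while 5.30% of like-length 3′ UTRs had a nonamer. MYC had 6 pentamers in 1993 bases, and JUN and KLF10 had 3 each in 1284 and 1348 bases.

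JUNB had 2 pentamers in 500 bases, which at 4 per kilobase was the highest density after that of FOS at 6.203 and above that of IER5 at 3.32, and 25.9% of like-length 3′ UTRs had at least as many. BTG2 also had 2 but in 2164 bases, where 81.1% of like-length 3′ UTRs had at least as many. JUND and EGR1 had 1 each, as many as the like-length median for JUND and fewer than the median of 2 for EGR1. IER2 had none in 1053 bases, where 76.8% of like-length 3′ UTRs had at least 1. The 3′ UTRs of JUND and IER2 were also the lowest in A and T, at 38.4% and 41.4%, against medians of 54.4% and 57.0% in 3′ UTRs of like length. These matches are letters in an annotated sequence, and no binding or decay was measured.

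The last 30 bases of the annotated message also differed between members. The poly(A) signal AATAAA lay there in 7 of 10 members, against 58.1% of coding genes. It was missing from this window in JUNB, JUND and IER5, and from the rest of their annotated 3′ UTR. Only these letters were searched for, and no variant of them. As examples, the end of IER2 (chr19:13154882-13154911, plus strand), with the signal in capitals, and that of JUND (chr19:18279694-18279723, minus strand), with no such letters, are printed here.
IER2: gaaAATAAAaaccatttgagtaaaaaagcc
JUND: ctggcgggctgggcggggcctggttcgctt

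**Figure D1:**
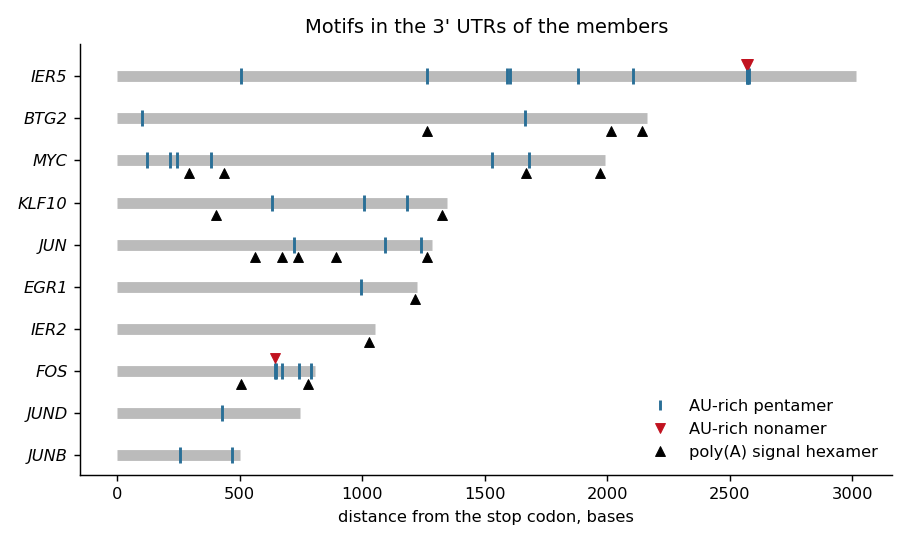
Map of the 3′ UTR of each member, drawn to scale from the stop codon (x axis, bases), with pentamers ATTTA as ticks, nonamers TTATTTATT as red triangles above the bar and AATAAA as black triangles under it. IER5 has the longest 3′ UTR at 3014 bases and JUNB the shortest at 500, and the nonamers fall in FOS and IER5.

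The level of each message was then compared between the groups. Levels are group means of normalised counts per kilobase of the deposited exonic length, with the PABPC table brought to the scale of the PABPN table through the input libraries they share. In input MYC was highest at 5225 and FOS lowest at 4.10, a 1275-fold range. JUN followed MYC at 2034, then IER5 at 596, JUND at 533, KLF10 at 372, BTG2 at 309, IER2 at 257, JUNB at 134 and EGR1 at 13.1. All neighbours in this order differed beyond the error of their difference, with a 95% interval that excluded 0 on the log2 scale, except IER5 and JUND. This error is that of the counts and does not cover the choice of gene length, which changes the place of IER2. It also does not cover reads in introns, which the counts include although the length is exonic. JUNB, JUND and IER5 have no intron, and the part of such reads in the other members was not measured. The paper reports a higher ratio of intron to exon reads with PABPN than with PABPC.

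In the PABPN RIP MYC, JUN and IER5 again led, at 2759, 1498 and 652 per kilobase. IER2 came next at 462, then BTG2 at 421, JUND at 356 and KLF10 at 330, and neighbours among these 4 did not differ beyond error. In the PABPC RIP JUND moved to the third place at 2339, behind MYC at 9013 and JUN at 3036. IER5 at 1447 and BTG2 at 1275 did not differ beyond error, nor did IER2 at 934 and KLF10 at 814. EGR1 and FOS were lowest in all 3 groups. Together the members made up 786 of each 1000000 reads in input, 579 in the PABPN RIP and 1324 in the PABPC RIP, of which MYC alone gave 63.9%, 50.3% and 57.3%.

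**Figure D2:**
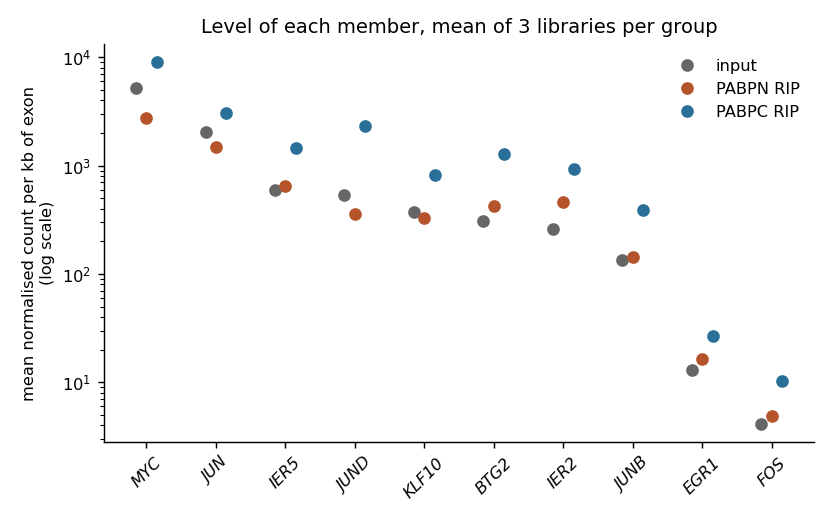
Mean normalised count per kilobase of exon (y axis, log scale) of each member in input, PABPN RIP and PABPC RIP, each point the mean of 3 libraries, ordered by the level in input. The PABPC point is the highest of the 3 for all members, and the PABPN point lies under the input point for MYC, JUN, JUND and KLF10.

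The members stood above input with PABPC, and with PABPN they lay on both sides of it. Genes were called enriched or depleted at a log2 fold change over input beyond 0.5 with an adjusted p of at most 0.01. With PABPC 9 of 9 members tested were enriched, where 38.4% of 14843 genes tested were, and 0 were depleted, where 32.4% were. With PABPN 1 of 8 members tested was enriched (IER2), where 17.5% of 15526 genes tested were, and 2 were depleted (JUND and MYC), where 14.6% were. As shares of the members tested with PABPN these were 12.5% and 25%, from too few genes to be read as a result about the members. The median log2 fold change of the members tested was 1.28 with PABPC (all genes 0.14) and -0.042 with PABPN (all genes -0.041). The sign of the latter depended on scaling, with 0.093 when fold changes were taken between shares of all reads, a scaling that moved all PABPN fold changes by 0.14 and all PABPC fold changes by -0.19.

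**Figure D3:**
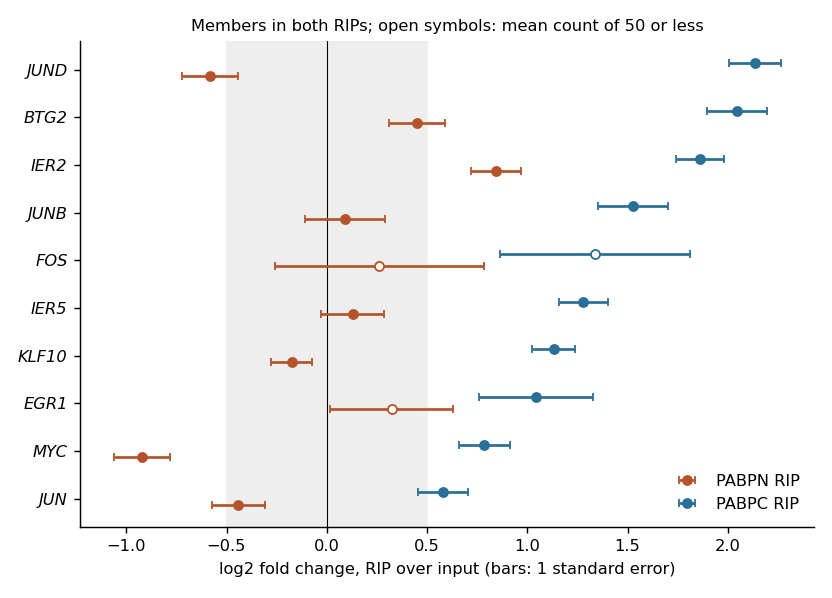
Log2 fold change of RIP over input (x axis) of each member with PABPN and with PABPC, with bars of 1 standard error, and the range between -0.5 and 0.5 shaded. Open symbols mark mean counts of 50 or less, and the PABPC value, from 0.58 for JUN to 2.13 for JUND, lies right of the PABPN value in each of the 10 members.

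The messages of AP-1, a dimeric transcription factor built from FOS and JUN proteins, were taken first. JUN (chr1:58776845-58784048, minus strand), which encodes c-Jun, had mean normalised counts of 6624 in input, 4879 in the PABPN RIP and 9888 in the PABPC RIP. It was thus lower than input with PABPN and higher with PABPC. The deposited log2 fold change of JUN with PABPN was -0.44 (SE 0.133), which missed the cut-off although the adjusted p was 0.00312. With PABPC it was 0.58 (SE 0.124, adjusted p 7.64e-06). The PABPC value was the smallest of the 10 and lost its call under each change of scale, at 0.44 when centred on all genes, 0.33 when centred on coding genes and 0.39 when scaled to shares of all reads, which left 8 members enriched.

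JUNB (chr19:12791486-12793315, plus strand), a relative of c-Jun that is often described as a weaker activator, had mean counts of 246, 262 and 710 in input, PABPN RIP and PABPC RIP. Input and PABPN RIP were close, at a log2 fold change of 0.09 (SE 0.197, adjusted p 0.762). With PABPC the message was enriched 2.88-fold (log2 1.53, SE 0.173, adjusted p 6.78e-18). JUNB lies entirely within HOOK2 on the opposite strand, and the strand setting of the counting is not given in the sources used here. The libraries were made with a stranded kit, and the deposited length of JUNB, 1830 bases, is that of the whole gene although stretches shared by overlapping genes were taken out of the annotation.

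JUND (chr19:18279694-18281622, minus strand), the family member known for steady expression in resting cells, had mean counts of 1029, 687 and 4511. It was the lowest in PABPN RIP and by far the highest in PABPC RIP. The log2 fold change was -0.58 (SE 0.139, adjusted p 0.000133) with PABPN and 2.13 (SE 0.131, adjusted p 1.25e-58) with PABPC. The former call was lost in a test that the change itself exceeds 0.5, and the value went to -0.45 when scaled to shares of all reads. The latter lay at the 97.1 percentile of genes tested. FOS (chr14:75278826-75282230, plus strand), the partner of JUN proteins, was nearly absent, with mean counts of 13.1, 15.6 and 33.1, and was not called. Its deposited values were 0.26 (SE 0.520) with PABPN and 1.34 (SE 0.472, adjusted p 0.00863) with PABPC.

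Within the JUN family, order and size differed between the RIPs. With PABPC, JUND exceeded JUNB by 0.61 (error 0.217) on the log2 scale and JUNB exceeded JUN by 0.95 (error 0.213), each with a 95% interval that excluded 0. With PABPN, JUNB was above JUN by 0.53 (error 0.238), and JUND minus JUNB was -0.67 (error 0.241). JUND minus JUN was -0.14 (error 0.192) with PABPN, within error. These comparisons between messages were not adjusted for their number.

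EGR1 (chr5:138465479-138469303, plus strand), a zinc finger transcription factor induced by serum, was also low, with mean counts of 41.0 in input, 51.3 in the PABPN RIP and 84.8 in the PABPC RIP. Its PABPN value of 0.32 (SE 0.304, adjusted p 0.430) rested on a mean count below the minimum. With PABPC it was enriched 2.06-fold (log2 1.04, SE 0.285, adjusted p 0.000537), on a mean count of 53.9 in that table, just above the minimum of 50.

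The IER genes encode small nuclear proteins that regulate transcription. IER2 (chr19:13150411-13154911, plus strand) had mean counts of 793, 1422 and 2875 in input, PABPN RIP and PABPC RIP, and so was higher than input in both RIPs. It was enriched 1.79-fold with PABPN (log2 0.84, SE 0.124, adjusted p 1.17e-10) and 3.63-fold with PABPC (log2 1.86, SE 0.119, adjusted p 8.62e-54). The PABPN value lay at the 90.2 percentile of genes tested and above the next member, BTG2, by 0.39 (error 0.186), but was not called in a test that the change itself exceeds 0.5. Antisense lncRNAs overlap IER2 over 1123 and 662 bases. IER5 (chr1:181088700-181092900, plus strand), a regulator linked to the heat shock response, had mean counts of 2505, 2741 and 6080. Its log2 fold change was 0.13 (SE 0.157, adjusted p 0.554) with PABPN and 1.28 (SE 0.123, adjusted p 1.33e-24) with PABPC.

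MYC (chr8:127735434-127742951, plus strand), the growth-promoting factor that binds DNA with MAX, was the most abundant member, with mean counts of 23952 in input, 12647 in the PABPN RIP and 41315 in the PABPC RIP. It was lower than input with PABPN and higher with PABPC. With PABPN it was depleted 1.89-fold (log2 -0.92, SE 0.142, adjusted p 8.80e-10), the lowest value among the members and at the 5.05 percentile of genes tested. With PABPC it was enriched 1.72-fold (log2 0.79, SE 0.128, adjusted p 2.46e-09). Neither call held in a test that the change itself exceeds 0.5. The antisense lncRNA CASC11 overlaps MYC over 3554 bases. KLF10 (chr8:102648784-102655725, minus strand), a zinc finger repressor induced by TGF-beta, had mean counts of 1422, 1259 and 3111. The log2 fold change was -0.18 (SE 0.103, adjusted p 0.169) with PABPN and 1.13 (SE 0.107, adjusted p 4.35e-25) with PABPC.

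BTG2 (chr1:203305491-203309602, plus strand) encodes an antiproliferative protein that contacts the CCR4-NOT deadenylase. Mean counts were 851 in input, 1162 in the PABPN RIP and 3515 in the PABPC RIP, in rising order. With PABPC it was enriched 4.13-fold (log2 2.05, SE 0.149, adjusted p 5.28e-42), behind only JUND and not beyond error of it. With PABPN the log2 fold change was 0.45 (SE 0.139, adjusted p 0.00425), short of the cut-off. It passed that cut-off at 0.58 when scaled to shares of all reads.

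The difference between the RIPs was tested directly for genes above the minimum count in both tables. Of the 8 members tested, 8 had a higher log2 fold change with PABPC, where 33.4% of 14581 genes did, and 0 had a higher value with PABPN, where 36.1% did (two-sided normal test, Benjamini-Hochberg adjusted p of at most 0.01 and a difference beyond 0.5). Of 12452 coding genes 37.8% were higher with PABPC and 30.6% with PABPN, and of 231 single-exon coding genes 80.5% and 5.63%. The differences of the members were not set against genes of like length. The median difference of the members, PABPN minus PABPC, was -1.37 (all genes 0.068, coding genes -0.117). JUND had the largest at -2.72 (error 0.190, adjusted p 6.58e-45), which corresponds to 6.57-fold more in the PABPC RIP relative to the PABPN RIP and to the 3.15 percentile of genes. It was followed by MYC at -1.71 (error 0.191, adjusted p 1.52e-18), BTG2 at -1.60 (error 0.203, adjusted p 1.46e-14) and JUNB at -1.44 (error 0.263, adjusted p 9.82e-08).

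The smaller differences lay close together. KLF10 stood at -1.31 (error 0.149), IER5 at -1.15 (error 0.199), JUN at -1.02 (error 0.181) and IER2 at -1.02 (error 0.172), with adjusted p between 6.97e-18 and 4.22e-08. JUN and IER2 thus reached the same difference from opposite sides of input with PABPN. FOS and EGR1 were not tested, and their 95% intervals, from -2.45 to 0.30 and from -1.54 to 0.10, include 0. These intervals count the variance of the shared input as if independent and so are too wide. Whether narrower intervals without that part would include 0 was not computed.

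Calls in both comparisons were set side by side over the 14579 genes tested in both. IER2 was enriched in both RIPs, as were 7.63% of genes. JUN, JUNB, IER5, KLF10 and BTG2 were enriched with PABPC and not called with PABPN, a pattern of 20.6% of genes. JUND and MYC were depleted with PABPN and enriched with PABPC, as were 9.38%.

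**Figure D4:**
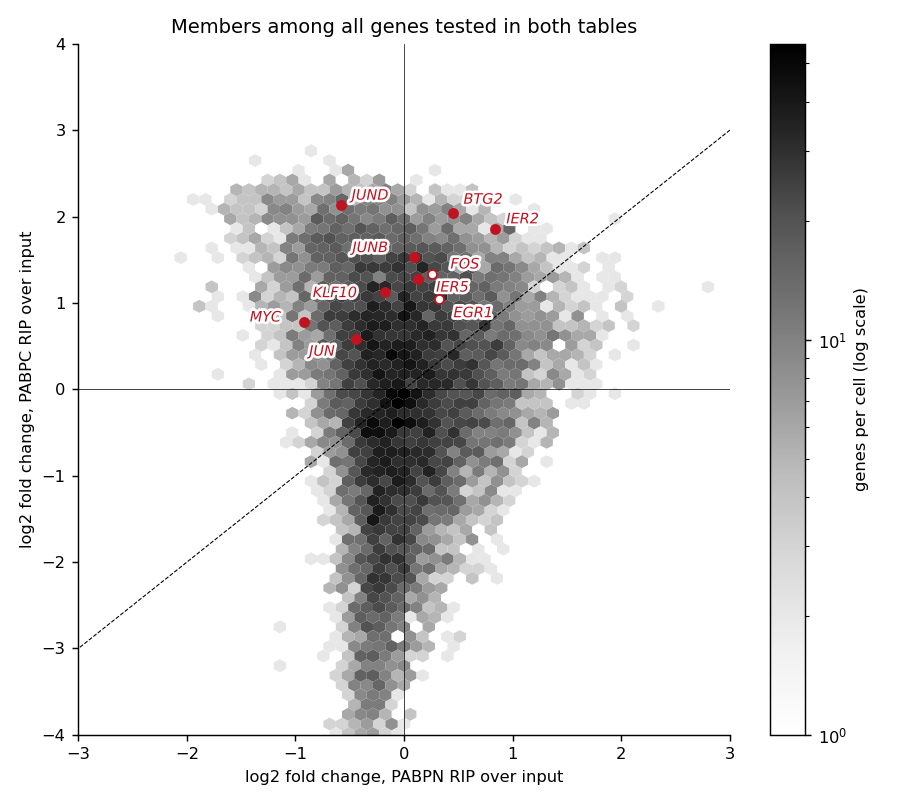
Log2 fold change over input with PABPN (x axis) against that with PABPC (y axis). Genes above the minimum count in both tables are in grey, and the members are in red, open where the difference was not tested. Darker cells hold more genes (log scale), and genes with values beyond the ends of either axis are not drawn. All 10 members lie above the dashed line of equal values, from IER2 at 0.84 and 1.86 on the right to MYC at -0.92 and 0.79 on the left.

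Gene structure was compared with association because the deposited counts combine reads in exons and introns. JUN, JUNB, JUND and IER5 have 1 exon in the canonical transcript, as do 5.64% of 20046 coding genes. That exon is the whole gene in JUNB, JUND and IER5, which leaves no intron to be counted, whereas the JUN gene of release 44 also has other transcripts and holds bases outside exons. The others have 2 to 4 exons in the canonical transcript and short introns, from 688 intronic bases in EGR1 and 1299 in FOS to 3000 in MYC and 4027 in KLF10. Over the 4 single-exon members the medians were -0.18 with PABPN and 1.40 with PABPC. The members tested that have more exons had 0.14 with PABPN (4 genes) and 1.13 with PABPC (5 genes). Every member tested with PABPC was enriched, with either structure.

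Single-exon coding genes in general had a similar median to the members in the PABPC RIP, which was 1.27 over 242 genes, of which 68.2% were enriched and 22.7% depleted, against 0.24, 40.7% and 28.1% over 12330 coding genes with more exons. Of the 4 single-exon members 0 were depleted, too few genes to be set against the share of that class. With PABPN the single-exon coding genes had a median of -0.19 over 237 genes, with 39.7% depleted and 21.1% enriched. Their median difference, PABPN minus PABPC, was -1.55 over 231 genes, and 80.5% were higher with PABPC. The paper reports depletion in both RIPs of the histone messages that end without a poly(A) tail. Histone genes were not taken out of the single-exon class here, and their part in its depleted shares was not tested.

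Exonic length was considered next, since the members are 1830 to 4584 bases long in the deposited tables and shorter messages stood higher with PABPC. Over 4459 coding genes of 1500 to 4500 bases the PABPC median was 0.90, and 61.9% were enriched. Each member was therefore set against the median of coding genes of like length, with the limits used for the 3′ UTRs. With PABPC, BTG2 lay above it by 1.01, IER2 by 0.99, JUND by 0.85 and IER5 by 0.75. KLF10 lay above by 0.51, FOS by 0.49, MYC by 0.33, JUNB by 0.23 and EGR1 by 0.18. JUN lay under the median of its length class, at -0.25 relative to it. These departures were not tested. The SE of the PABPC value was 0.472 for FOS, 0.173 for JUNB, 0.285 for EGR1 and 0.124 for JUN. With PABPN the largest departures from like-length genes were 0.92 for IER2, -0.87 for MYC and 0.56 for BTG2.

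**Figure D5:**
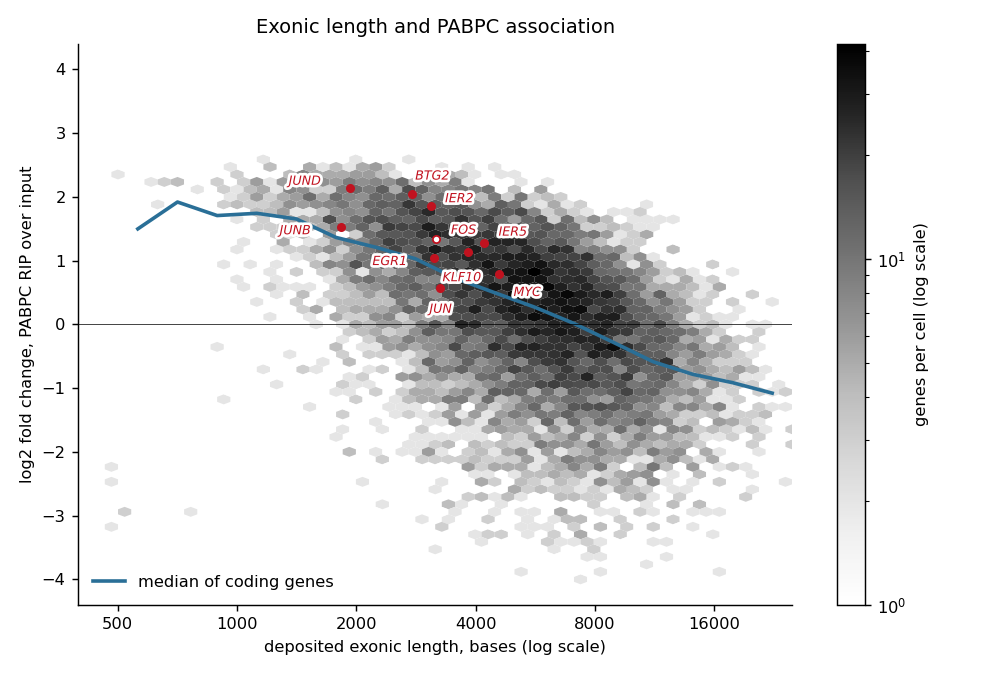
Log2 fold change with PABPC over input (y axis) against deposited exonic length (x axis, bases, log scale) of coding genes above the minimum count in grey, with their median in bins of length as a line and the members in red (FOS open, below the minimum count). JUND and BTG2 lie above the line at 2.13 and 2.05, and JUN lies under it at 0.58.

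AU-rich letters were also set against association over all coding genes. The 1245 coding genes with a nonamer in the 3′ UTR stood at a median of -0.09 with PABPC on the log2 scale, against 0.29 for the 11306 without. FOS and IER5, the members with a nonamer, stood at 1.34 (SE 0.472) and 1.28 (SE 0.123). FOS was below the minimum count and so is not among the 1245 genes. With PABPN the medians of coding genes with and without a nonamer were -0.084 and -0.087. The 3′ UTRs with a nonamer are longer, at a median of 2835 bases against 958, and the part of length in this difference was not tested.

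Other genes of the same pathways, 89 in all, gave a similar picture in the PABPC RIP. Of 77 tested, 55 (71.4%) were enriched with PABPC, where 38.4% of all genes were, and 5 (6.49%) were depleted, where 32.4% were, with a median of 1.05. Of coding genes 41.2% were enriched and 27.9% depleted, and of those of 1500 to 4500 bases 61.9% and 14.4%. The listed genes were not set against genes of like length. With PABPN 15 of 78 (19.2%) were enriched and 8 (10.3%) were depleted, near the 17.5% and 14.6% of all genes, with a median of -0.065. Of 77 tested for the difference, 48 (62.3%) were higher with PABPC, where 33.4% of all genes were, and 8 (10.4%) with PABPN, where 36.1% were. The lists given next are small, and several have shares called near those of all genes, so nothing particular to them is read from their counts. Opposite calls were found in 6, all depleted with PABPN and enriched with PABPC.

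Among 42 other immediate early genes, 32 of 39 tested were enriched with PABPC and 0 were depleted (median 1.19), and 6 of 40 were enriched and 5 depleted with PABPN (median -0.065). ID3, an inhibitor of helix-loop-helix factors, came close to JUND, at -0.79 with PABPN and 1.96 with PABPC and a difference of -2.75 (error 0.255). CITED2, a coactivator-binding protein, had -0.69 and 1.21, and NFKBIA, the inhibitor of NF-kappaB, had -0.62 and 1.27. The nuclear receptor NR4A2 went the other way, at 1.13 with PABPN (enriched) and 0.14 with PABPC (not called), a difference of 1.00 (error 0.277).

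Partners of the AP-1 proteins were mixed. With PABPC 5 of 8 were enriched and 2 depleted, and with PABPN 2 of 8 were enriched and 0 depleted. MAFG, a small MAF protein, was the highest with both, at 1.98 with PABPN and 2.02 with PABPC, while ATF2 was the lowest with PABPC at -0.77. JDP2 was the lowest with PABPN at -0.53, with an SE of 0.687. Among the EGR and NAB genes 3 were tested in each comparison. NAB2, a corepressor of EGR1, was enriched with PABPC at 1.22 and had 0.16 with PABPN, and its relative NAB1 was enriched with PABPN at 0.79 and had 0.44 with PABPC. WT1, which binds similar sites, had -0.38 and -0.41, neither called.

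The MYC and MAX network had 6 of 10 genes enriched and 1 depleted with PABPC, and 3 of 10 enriched and 0 depleted with PABPN. MYCL, a relative of MYC, stood at -0.48 with PABPN (not called) and 1.75 with PABPC (enriched), a difference of -2.23 (error 0.222). MXD3, an antagonist that pairs with MAX, was enriched in both at 1.44 and 1.27, and MGA was the lowest with PABPC at -0.69. In the BTG and TOB family 3 of 4 were enriched with PABPC and 1 was depleted with PABPN. BTG1, the closest relative of BTG2, was depleted with PABPN at -0.54 and enriched with PABPC at 1.22. TOB2 was the highest with PABPN at 0.33, not called there, and was enriched with PABPC at 1.09. BTG3 was the lowest with PABPC at 0.0071, not called.

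Regulators of these messages were examined last. Of serum response factor and its cofactors, which regulate immediate early genes, 3 of 6 were enriched and 2 depleted with PABPC, with 1 enriched and 1 depleted with PABPN. ELK1 was the highest with PABPC at 1.85, ELK3 had opposite calls at -0.58 with PABPN and 0.58 with PABPC, ELK4 was enriched with PABPN at 0.77, and MRTFA was depleted with PABPC at -1.73. Of the proteins that bind AU-rich elements, 5 of 7 were enriched and 0 depleted with PABPC, and 2 were enriched and 1 depleted with PABPN. KHSRP, a decay factor, was depleted with PABPN at -1.01 and enriched with PABPC at 1.23, and ZFP36L2 was the highest with PABPC at 1.63. TIA1 was enriched with PABPN at 0.93 and had 0.0070 with PABPC.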

How the data were processed

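The authors aligned reads to hg38 with STAR, counted exonic and intronic reads per gene with featureCounts 2.0.2 on an annotation derived from GENCODE without stretches shared by overlapping genes, and compared each RIP with input in DESeq2. No table of counts was used here. The signal column the authors deposited is the mean over 6 libraries of counts divided by size factors. The log2 columns the authors deposited are the fold change over input and its standard error, and the p-value columns the authors deposited hold the Wald p and its Benjamini-Hochberg value. These comparison columns are the authors' own, and were used because the values of single libraries were not analysed here. A gene length in bases was also deposited.

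Group means were computed from mean and fold change. The tables' input means differed by -0.23 on the log2 scale (SD 0.00229 over genes). Depth was estimated from genes with 1 read in 1 library. The p-values measure the spread between 3 biological replicates, and whether the authors' fit used the replicate numbers was not stated. The difference between RIPs was tested with a normal test on both standard errors, which counts the shared input variance as if independent, and was adjusted over 14581 genes. It was first tested on simulated data. The members and lists were chosen with earlier results of these data known. All members are named, and of each list, among genes above the minimum count in both tables, those with opposite calls and then the highest and lowest of each comparison, at most 4 a list (NR4A3, the lowest with PABPC among the other immediate early genes, was the fifth of its list and its value is not given). Of 90 listed symbols 89 were found, and MIZ1 had no match while ZBTB17 of the same list had. UTR sequences were read from GENCODE release 44 on hg38, the build of the authors, whose annotation was an earlier release, so lengths can differ. Python 3.11.15, numpy 2.4.6, pandas 2.3.3, scipy 1.17.1 and matplotlib 3.10.9 were used. The alternatives were cut-offs, minimum counts, scaling, adjustment, the length used and the region searched.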

Additional observations from a re-analysis of the deposited data

How the results depend on the processing

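No paired analysis was possible because the tables hold means over libraries, and for the same reason no replicate could be left out. The 8 members higher with PABPC than with PABPN were 8 under all alternatives run. With PABPC the count of enriched members went from 9 to 6 in a test that the change exceeds 0.5, without JUN, EGR1 and MYC, and to 10 with no minimum count, with FOS. It was 8 without JUN, centred on all or on coding genes or scaled to shares of all reads, and 7 without JUN and MYC at a cut-off of 1. With PABPN the 1 enriched member became 0, and the 2 depleted members became 0, with a cut-off of 1 or in a test that the change exceeds 0.5. Centred on coding genes the PABPN counts were 2 enriched and 1 depleted, since BTG2 reached 0.54 and JUND only -0.495, and the PABPC median went from 1.28 to 1.03. Scaled to shares of all reads, an alternative chosen after seeing the data, the PABPN counts were again 2 and 1. In the last 300 bases of the 3′ UTR 5 members in place of 9 had a pentamer and 1 in place of 2 a nonamer. With the length of the canonical transcript the median input level per kilobase went from 340.5 to 431.8. IER2 then stood above BTG2 in input, at 376 and 312, and in the PABPC RIP, at 1362 and 1288. In the PABPN RIP it then stood above IER5, at 674 and 652. Of 216 values of single members under an alternative, 196 kept direction and call, 17 lost a call, 3 gained one and 0 reversed. Only the changes of scale alter a fold change, so the other alternatives could not reverse a direction. A value without a call could not lose one, so these counts are no measure of robustness. The cause of the lost and gained calls was not tested beyond the construction of each alternative. Depth limits FOS and EGR1, which have too few reads for a test of the difference.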
